A study of Homo sapiens with 10 samples.

Results

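Cholesterol and fatty acid synthesis was followed through 37 genes, taken as the enzymes of both pathways, their regulators and a sterol carrier, in 10 Affymetrix hgu133a arrays of MDA-MB-435 cells, a human line labelled as melanoma. Every probe set whose only gene symbol in the platform annotation was that of a listed gene was used. This gave 59 probe sets of 31 genes, out of 11963 genes with such a probe set on the array. CYP51A1, ELOVL1 and FADS1 had only probe sets that carry several symbols, and FDFT1, STARD4 and ACSL3 had no probe set under their symbol. The levels of these 6 were therefore not analysed here. The arrays form 5 groups of 2 biological duplicates: untreated cells, cells treated with hepatocyte growth factor (HGF) for 1, 6 or 24 h, and cells stably transduced with integrin Beta4 (ITGB4). All come from 1 cell line under standard growth conditions. The labels give no time for the untreated arrays, and no untreated arrays matched to 1, 6 or 24 h were compared. Time in culture therefore cannot be told apart from time with HGF. Descriptions of the ITGB4 samples carry the word Mock beside a treatment label of integrin Beta4, and no separate mock-transduced group was compared, so an effect of transduction cannot be told apart from one of ITGB4.

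Each value is an RMA value (log2 scale) as deposited by the authors, a summary of the probes of each probe set already normalized between arrays, so a difference of 1 is a factor of 2 in signal. Probe sets were kept where the second-highest of the 10 values was at least 7.3, which left 10176 probe sets, 9098 of them with a single symbol from 6390 genes, and among these 49 probe sets of 29 members. TM7SF2, a sterol reductase, lay between 6.8003 and 7.2424 over the 10 arrays and ACSL4, which activates polyunsaturated fatty acids, between 3.28 and 4.84, and neither was kept. The members nearest the threshold were INSIG2, kept at a second-highest value of 7.33, and TM7SF2, left out at 7.06. Where a gene had several kept probe sets, the one of highest mean stands for it (its representative), and for called genes the other probe sets are given where their call differs. Differences of sign between probe sets in comparisons without a call are mostly not listed. Calls required an adjusted p under 0.05 in limma, with the within-group spread estimated over all 10 arrays. A single called probe set sufficed for its gene. With 2 arrays per group the precision of every difference is limited.

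Melanocyte markers were present, 12 of 13 being kept, with a median level of 10.92, against 2 of 12 epithelial, 3 of 9 fibroblast, 1 of 4 hepatocyte and 0 of 6 adipocyte markers. The medians of the adipocyte and hepatocyte markers stayed between 5.47 and 5.61 and between 5.29 and 5.59 over the 5 groups. Of the markers of these 4 other cell types, 0 were called against untreated cells in any comparison, 1 fibroblast marker from 1 to 6 h and 1 epithelial marker from 6 to 24 h, and their part in the results was not tested. Of the 12 kept melanocyte markers, 1 was called after 1 h and 2 after 6 h against untreated cells, and 1 from 6 to 24 h. Of all 6390 kept genes, 464, 492 and 1416 were called in these comparisons. ITGB4 was at 13.10 in the transduced cells and between 6.57 and 6.81 in the other groups on 1 of its probe sets, as labelled. For GAPDH, 3' minus 5' signal, a measure of RNA integrity, ran from -0.21 to -0.0061 over the 10 arrays. For ACTB it ran from -0.57 to -0.09, with both ITGB4 arrays, at -0.45 and -0.57, below all others and HGF 24 h replicate 1 the highest, and the part of this in the results was not tested. The arrays of 1 group differed with a standard deviation over kept probe sets of 0.18 at 6 h, 0.195 without treatment and 0.26 to 0.28 elsewhere.

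Cholesterol is built from acetyl-CoA through mevalonate, squalene and lanosterol. Sterol regulatory element-binding proteins (SREBPs) drive the genes of this pathway and of fatty acid synthesis. They are made as membrane precursors in the endoplasmic reticulum, where the INSIG proteins retain them through SCAP as long as sterols are abundant. When sterols fall, SCAP escorts them to the Golgi apparatus, where proteases release the active factor. SREBPs bind sterol regulatory elements in promoters, commonly beside CCAAT boxes bound by the factor NF-Y. In growing cells the pathway supplies membranes, protein prenylation and lipid signals.

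The 250 bases before the start of 5 members, chosen for their values, are given from RefSeq (GRCh38.p14), each 5' to 3' on the strand of the gene, since the stretches show which of these letters the promoters share. Capitals mark CCAAT and TCACNCCAC, a form of the sterol regulatory element, each searched on both strands, so that the first also reads ATTGG. HMGCS1, MSMO1 and NSDHL had their highest group means after 6 h with HGF, for MSMO1 without a call against untreated cells. ELOVL6 was low after 1 h, and SREBF2 was lower after 6 h than after 1 h.
HMGCS1, chr5:43313413-43313662, minus strand: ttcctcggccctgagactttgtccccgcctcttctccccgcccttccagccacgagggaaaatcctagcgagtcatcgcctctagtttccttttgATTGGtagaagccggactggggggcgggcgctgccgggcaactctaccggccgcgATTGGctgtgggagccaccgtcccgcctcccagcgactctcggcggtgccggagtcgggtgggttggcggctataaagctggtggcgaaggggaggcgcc
MSMO1, chr4:165327419-165327668, plus strand: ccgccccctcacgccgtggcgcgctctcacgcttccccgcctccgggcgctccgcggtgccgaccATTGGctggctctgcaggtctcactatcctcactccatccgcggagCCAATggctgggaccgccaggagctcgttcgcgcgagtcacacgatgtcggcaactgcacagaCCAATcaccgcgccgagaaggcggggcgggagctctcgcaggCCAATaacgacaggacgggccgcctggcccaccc
NSDHL, chrX:152830813-152831062, plus strand: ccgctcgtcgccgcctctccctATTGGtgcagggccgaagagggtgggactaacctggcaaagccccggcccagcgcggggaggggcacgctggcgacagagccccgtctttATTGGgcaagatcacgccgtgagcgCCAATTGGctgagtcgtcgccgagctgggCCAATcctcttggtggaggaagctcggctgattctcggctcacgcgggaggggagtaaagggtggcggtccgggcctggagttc
ELOVL6, chr4:110198616-110198865, minus strand: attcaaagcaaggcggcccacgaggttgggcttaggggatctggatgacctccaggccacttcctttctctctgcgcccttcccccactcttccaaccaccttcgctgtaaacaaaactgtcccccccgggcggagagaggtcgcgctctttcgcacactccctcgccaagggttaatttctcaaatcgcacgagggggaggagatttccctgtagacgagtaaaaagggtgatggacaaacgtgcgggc
SREBF2, chr22:41832855-41833104, plus strand: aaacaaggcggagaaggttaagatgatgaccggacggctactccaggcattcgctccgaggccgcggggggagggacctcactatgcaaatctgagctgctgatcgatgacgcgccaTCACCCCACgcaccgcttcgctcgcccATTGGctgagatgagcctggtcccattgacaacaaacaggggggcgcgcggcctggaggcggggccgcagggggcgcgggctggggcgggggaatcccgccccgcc
The HMGCS1 stretch held 2 CCAAT boxes, while a second RefSeq promoter of HMGCS1, not printed, held 0. The MSMO1 stretch held 4 and that of NSDHL 5, of which 1 pair shares bases as CCAATTGG. The ELOVL6 stretch held 0 of either motif. That of SREBF2 held 1 of each, with the sterol element 133 bases and the CCAAT box 106 bases before the start. RefSeq promoters were matched for 33 of the 37 members, some with several starts, and not for ACAT2, FDFT1, SQLE and FASN. The matched members include CYP51A1, STARD4, ELOVL1, FADS1, ACSL3, TM7SF2 and ACSL4, whose levels were not analysed or not kept. Of 23 promoters of sterol enzymes 16 held CCAAT (69.6%), of 19 of fatty acid genes 9 (47.4%) and of 7 of the regulators and the carrier 3 (42.9%), against 32.0% of all 35116 promoters. TCACNCCAC was found in 2 of 49 member promoters, those of SREBF2 and of 1 start of ACSL1, and in 0.883% of all promoters. A match of letters is a description and not a site shown to be bound.

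After 1 h with HGF, the sterol enzymes SC5D and IDI1 and the fatty acid elongase ELOVL6 were lower than in untreated cells. Of the 29 kept members 0 were called higher and 3 lower, where 0.814% of all 6390 kept genes were called higher and 6.45% lower. Without a filter on low values ACSL4 was called lower too. With each array centred on its median, FDPS and INSIG1 were called higher and SC5D and ELOVL6 lower, a split of 2 and 2. At an unadjusted p under 0.05 from limma, 9 members were higher and 7 lower, where 893 and 1086 of all 6390 kept genes were. The median difference of the sterol enzymes was 0.13, against 0.07 over all kept genes. Leaving out either untreated array, or replicate 1 of HGF 1 h, left 0 members called. In whole cultures, less RNA per cell and fewer cells of a kind cannot be told apart.

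After 6 h, the sterol enzymes HMGCS1, SQLE and NSDHL and 1 probe set of ACACA, which makes malonyl-CoA for fatty acid synthesis, were higher than in untreated cells. Of the 29 members 4 were called higher and 0 lower, where 4.73% of all kept genes were higher and 2.97% lower. Of the 16 sterol enzymes 3 were called, and the median difference of their representative probe sets was 0.20, against 0.01 over all kept genes. Of the 8 fatty acid genes 1 was called, with a median of -0.03, and of the 5 regulators 0. With any single untreated or HGF 6 h array left out, 0 members were called. With the kept probe sets averaged per gene, HMGCS1 and SQLE were called, while the adjusted p from limma was 0.0512 for NSDHL and 0.0951 for ACACA.

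The largest share of members differed between 6 and 24 h with HGF. At 24 h 11 of 29 were lower than at 6 h and 0 higher, where 14.0% of all kept genes were lower and 8.15% higher. They were the sterol enzymes HMGCS1, SQLE, MSMO1, NSDHL, HSD17B7 and SC5D, the regulators INSIG1 and INSIG2, and the fatty acid enzymes FASN, ACACA and ELOVL6. The median difference was -0.36 for the 16 sterol enzymes, 0.03 for the 8 fatty acid genes, -0.04 for the 5 regulators and -0.0024 over all kept genes. Of the sterol enzymes 14 of 16 had a negative difference, against 3215 of all 6390 kept genes. The representative probe sets of 18 members had both 24 h arrays below both 6 h arrays, against 33.0% of all kept genes. Without either HGF 6 h array 6 members were lower, and without either HGF 24 h array 7, in all 4 cases with HMGCS1, SQLE, MSMO1, NSDHL and ELOVL6 among them.

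From 1 to 6 h, 7 members were called higher and 2 lower, where 13.5% of all kept genes were higher and 8.15% lower. The list as a whole was split, with 15 representative probe sets positive and 14 negative. Their median was 0.02, against -0.03 over all kept genes. Sterol enzymes had 9 positive and 7 negative differences and a median of 0.15. Fatty acid genes stood at -0.01 and regulators at -0.27. HMGCS1, IDI1, SQLE, MSMO1, SC5D, INSIG2 and ELOVL6 were the ones called higher, and LSS and SREBF2 the lower ones. Without HGF 1 h replicate 1 the calls left were HMGCS1 and ELOVL6, and without HGF 6 h replicate 1 or 2 there were 3, HMGCS1 and ELOVL6 with SC5D in the first case and with MSMO1 in the second. With a single untreated array left out, whichever it was, SREBF2 was not called. Between 24 and 1 h no member was called by limma, where 0.0156% of all kept genes were higher and 0% lower. At an unadjusted p under 0.05, 11 members were lower and 0 higher at 24 than at 1 h, where 9.20% and 8.83% of all kept genes were.

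**Figure D1:**
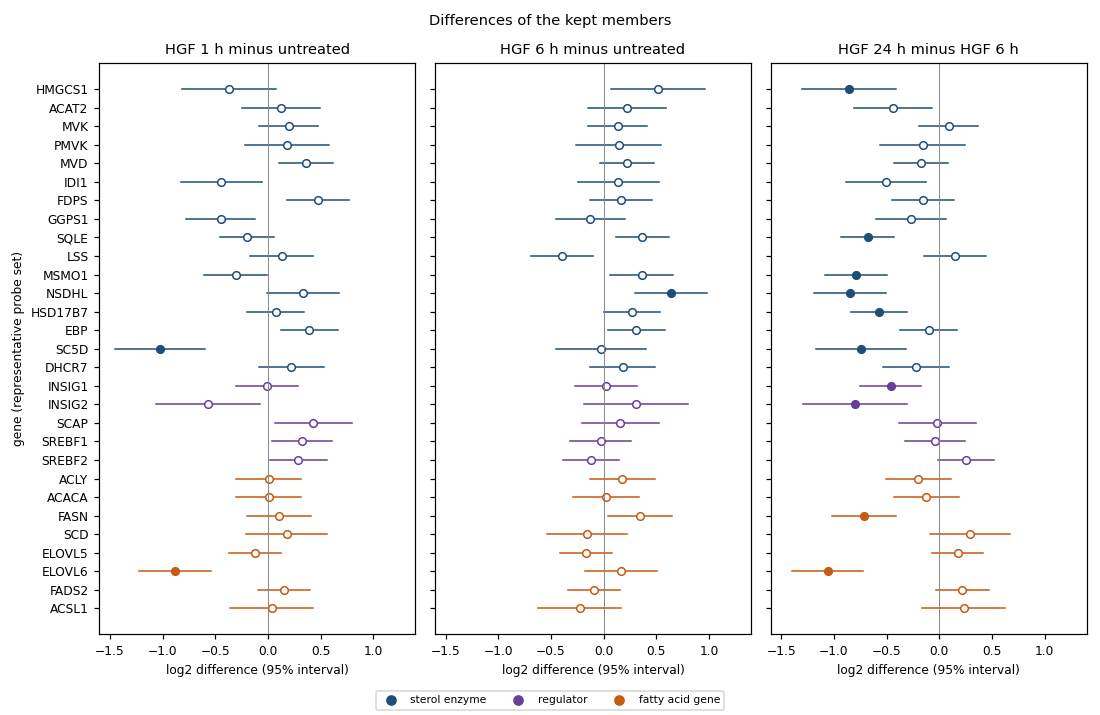
Log2 difference between group means (horizontal axes) for the representative probe set of each of the 29 kept members (vertical axis) after 1 and 6 h with HGF against untreated cells and after 24 against 6 h. Bars are 95% intervals from limma and filled points are called at an adjusted p under 0.05; from 6 to 24 h all 10 filled points lie below 0, from -0.46 for INSIG1 to -1.06 for ELOVL6.

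The first enzymes of the pathway make and use mevalonate. HMGCS1 condenses acetyl units to HMG-CoA. For HMGCS1 (221750_at) the arrays gave 7.89 and 7.82 without treatment, 7.34 and 7.49 at 1 h, 8.68 and 8.53 at 6 h, 7.43 and 7.19 at 24 h and 8.15 and 8.06 with ITGB4. The 6 h arrays lay above all others, and the 1 and 24 h arrays below the untreated ones. HMGCS1 rose by 0.75 after 6 h (limma, adjusted p = 0.0113, standard error 0.13), or 1.68-fold, and fell 2.45-fold from 6 to 24 h, a difference of -1.29 with an interval of -1.57 to -1.01 (adjusted p = 9.1e-04). Its representative probe set 205822_s_at had differences of 0.52 after 6 h (adjusted p = 0.153) and of -0.86 from 6 to 24 h (adjusted p = 0.0154). Its untreated arrays lay at 8.47 and 7.91, farther apart than on the other probe set.

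IDI1 isomerizes the isoprenoid unit that is later joined to farnesyl diphosphate. Untreated arrays of IDI1 on 204615_x_at read 10.87 and 10.96, the 1 h arrays 10.14 and 10.54, the 6 h arrays 10.84 and 10.94, the 24 h arrays 10.59 and 10.39 and the ITGB4 arrays 10.94 and 10.98. Both 1 h arrays and both 24 h arrays lay below those of the other groups. IDI1 fell by 0.57 after 1 h (limma, adjusted p = 0.0474, standard error 0.15). The representative probe set 208881_x_at differed by -0.44 at 1 h (adjusted p = 0.145) and by 0.58 from 1 to 6 h (adjusted p = 0.0414). The ending _x_at marks probe sets with probes that also match other transcripts, so IDI1 values are uncertain to that extent. At 9 of 19 alternative settings the call at 1 h was kept.

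The other mevalonate enzymes passed the test in none of the 7 comparisons. FDPS, which makes farnesyl diphosphate, went from 10.97 and 11.01 without treatment to 11.54 and 11.39 by 1 h, a difference of 0.47 (limma, adjusted p = 0.0614, standard error 0.13). MVD, the mevalonate decarboxylase, differed by 0.36 at 1 h (adjusted p = 0.0868), with both HGF 1 h arrays above both untreated arrays. GGPS1, which makes the geranylgeranyl group for protein prenylation, differed by -0.45 at 1 h (adjusted p = 0.0961). The largest difference of ACAT2, the acetyl-CoA thiolase, was -0.44 from 6 to 24 h (adjusted p = 0.0890). The kinases MVK and PMVK stayed between -0.27 and 0.22 on their representative probe sets in every comparison.

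SQLE, the squalene epoxidase and a rate-limiting enzyme of the pathway, has 3 kept probe sets, with differences of the same sign in each comparison named here. On 213562_s_at SQLE levels were 7.89 and 7.90 without HGF, then 7.85 and 7.87 by 1 h, 8.53 and 8.64 by 6 h and 7.53 and 7.63 by 24 h, with 8.56 and 8.14 in the ITGB4 cells. The 1 h arrays lay close to the untreated ones, the 6 h arrays above and the 24 h arrays below them. SQLE rose by 0.69 after 6 h (limma, adjusted p = 0.0217, standard error 0.14) and fell by 1.004 from 6 to 24 h (adjusted p = 0.00208). On 213577_at the differences were 0.50 (adjusted p = 0.0392) and -0.82, and on the representative 209218_at 0.37 (adjusted p = 0.0831) and -0.68 (adjusted p = 0.00384). LSS closes the ring to lanosterol from the product of SQLE. Untreated arrays of LSS read 11.25 and 11.08, the 1 h arrays 11.40 and 11.20, the 6 h arrays 10.74 and 10.80, the 24 h arrays 11.06 and 10.78 and the ITGB4 arrays 11.11 and 11.06. LSS was the only called sterol enzyme to be lower at 6 h than at 1 h, where it fell by 0.53 (limma, adjusted p = 0.0235, standard error 0.13), and its difference from untreated cells at 6 h was -0.40 (adjusted p = 0.104). Its other probe set 211019_s_at differed by -0.41 from 1 to 6 h without a call (adjusted p = 0.0502), and from 6 to 24 h the 2 had opposite signs, 0.15 and -0.06.

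The C4 demethylation steps after lanosterol are done by MSMO1, the methyl oxidase, NSDHL, the decarboxylating dehydrogenase, and HSD17B7, the keto-reductase. For MSMO1 the arrays gave 10.02 and 9.88 without treatment, 9.60 and 9.69 at 1 h, 10.48 and 10.15 at 6 h, 9.54 and 9.50 at 24 h and 10.16 and 10.03 with ITGB4. NSDHL levels were 8.60 and 8.67 without HGF, then 9.09 and 8.85 by 1 h, 9.33 and 9.22 by 6 h and 8.25 and 8.61 by 24 h, with 8.82 and 8.56 in the ITGB4 cells. After 1 h both MSMO1 arrays lay below and both NSDHL arrays above the untreated ones. NSDHL rose by 0.64 after 6 h (limma, adjusted p = 0.0380, standard error 0.15), where MSMO1 differed by 0.36 (adjusted p = 0.132). From 6 to 24 h NSDHL fell by 0.85 (adjusted p = 0.00500) and MSMO1 fell by 0.79 (adjusted p = 0.00393). The second probe set of NSDHL, with a 24 h mean under 7.3 that makes its size inexact, fell by 0.90, and after 6 h it differed from untreated cells by 0.55 without a call (adjusted p = 0.112). Untreated arrays of HSD17B7 read 9.53 and 9.39, the 1 h arrays 9.54 and 9.52, the 6 h arrays 9.66 and 9.80, the 24 h arrays 9.19 and 9.11 and the ITGB4 arrays 9.68 and 9.49. Its 24 h arrays were the lowest, with a difference from 6 h of -0.57 (limma, adjusted p = 0.00994, standard error 0.12), on a single probe set with the ending _x_at.

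SC5D, the desaturase of a late step, had the largest difference of any member at 1 h. For SC5D the arrays gave 9.55 and 9.37 without treatment, 8.42 and 8.45 at 1 h, 9.38 and 9.50 at 6 h, 8.78 and 8.60 at 24 h and 9.97 and 9.27 with ITGB4. The 1 and 24 h arrays lay below all others, while the 6 h arrays lay among the untreated ones. After 1 h SC5D fell by 1.03, or 2.04-fold (limma, adjusted p = 0.0227, standard error 0.19). It then rose by 1.0019 to 6 h and fell by 0.75 to 24 h (adjusted p = 0.00888 and 0.0223). At 24 h it differed from untreated cells by -0.77 (adjusted p = 0.346). EBP and DHCR7, also of the late steps, were called in no comparison. EBP, the sterol isomerase, went from 10.11 and 10.06 without treatment to 10.61 and 10.34 by 1 h, a difference of 0.39 (adjusted p = 0.0827), and DHCR7, the final reductase, stayed between -0.26 and 0.22 on its representative probe set.

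**Figure D2:**
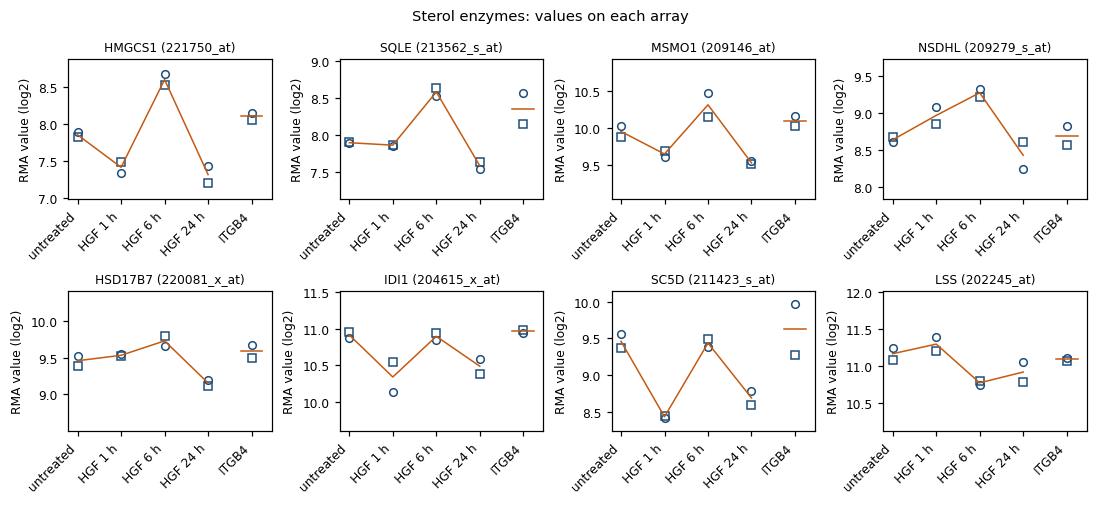
RMA values on the log2 scale (vertical axes, equal spans) of 8 sterol enzymes in the 5 groups (horizontal axes). Each gene is shown on its probe set with the lowest adjusted p, with circles for replicate 1, squares for replicate 2 and lines for group means. HMGCS1, SQLE, MSMO1, NSDHL and HSD17B7 have their highest group mean after 6 h with HGF. SC5D has its lowest values, 8.42 and 8.45, after 1 h.

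Of the SREBP genes and their escort, SREBF2 was called from 1 to 6 h, and SREBF1 and SCAP in no comparison. SREBF1 encodes the factor best known for fatty acid genes, and SREBF2 the one that acts mainly on sterol genes. Untreated arrays of SREBF1 read 9.38 and 9.22, the 1 h arrays 9.77 and 9.47, the 6 h arrays 9.33 and 9.21, the 24 h arrays 9.25 and 9.21 and the ITGB4 arrays 9.37 and 9.35. On 201248_s_at SREBF2 levels were 9.80 and 9.82 without HGF, then 10.00 and 10.20 by 1 h, 9.73 and 9.66 by 6 h and 9.93 and 9.97 by 24 h, with 9.70 and 9.87 in the ITGB4 cells. For SCAP the arrays gave 9.05 and 9.24 without treatment, 9.59 and 9.56 at 1 h, 9.17 and 9.44 at 6 h, 9.06 and 9.51 at 24 h and 9.24 and 9.04 with ITGB4. All 3 had both 1 h arrays above both untreated arrays, a pattern shared by 36.1% of all kept genes. Their differences at 1 h were 0.32, 0.29 and 0.43 (adjusted p = 0.153, 0.160 and 0.138 from limma). From 1 to 6 h SREBF2 fell by 0.41 (limma, adjusted p = 0.03995, standard error 0.12), while its other probe set 201247_at had a difference of -0.38 without a call (adjusted p = 0.0624). The call held in 10 of 19 alternative settings. After 6 h the intervals of the difference from untreated cells were -0.32 to 0.26 for SREBF1, -0.39 to 0.15 for SREBF2 and -0.21 to 0.53 for SCAP.

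INSIG1 and INSIG2 encode the proteins that retain SCAP, and INSIG1 is itself a known SREBP target. Untreated arrays of INSIG1 on 201627_s_at read 10.61 and 10.39, the 1 h arrays 10.54 and 10.45, the 6 h arrays 10.43 and 10.63, the 24 h arrays 10.14 and 9.99 and the ITGB4 arrays 10.69 and 10.54. On this probe set the 24 h arrays lay below all others, with a difference from 6 h of -0.46 (limma, adjusted p = 0.0333, standard error 0.13). The other probe sets were not called from 6 to 24 h, with -0.07 on 201625_s_at (adjusted p = 0.740) and -0.40 on 201626_at (adjusted p = 0.125). The call on 201627_s_at held in 11 of 19 alternative settings and was lost, among others, with median centring, cyclic loess and averaged probe sets. The 3 kept probe sets also disagreed at 1 h, with differences of -0.01, -0.07 and 0.50, the last on 201625_s_at. For INSIG2 the arrays gave 6.90 and 7.304 without treatment, 6.28 and 6.795 at 1 h, 7.54 and 7.28 at 6 h, 6.54 and 6.68 at 24 h and 7.33 and 6.74 with ITGB4. Means under 7.3 in 4 of the 5 groups make its differences inexact. From 1 to 6 h INSIG2 rose by 0.88 and to 24 h it fell by 0.80 (standard error 0.22 for both, adjusted p = 0.0239 and 0.0300 from limma).

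Of the fatty acid genes, ELOVL6 elongates palmitate to stearate. ELOVL6 levels were 8.22 and 8.12 without HGF, then 7.24 and 7.34 by 1 h, 8.40 and 8.27 by 6 h and 7.29 and 7.27 by 24 h, with 8.68 and 8.19 in the ITGB4 cells. The 1 and 24 h arrays lay below all others and overlapped each other. After 1 h ELOVL6 fell by 0.88 (limma, adjusted p = 0.0208, standard error 0.15), then rose by 1.05 to 6 h and fell by 1.06 to 24 h (adjusted p = 0.00387 and 0.00215). At 24 h the difference from untreated cells was as large, -0.89, with an adjusted p of 0.346, in a comparison in which limma called no probe set at all. The means at 1 and 24 h, 7.29 and 7.28, lie under 7.3, so these sizes are not exact.

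For FASN, the fatty acid synthase, the arrays gave 11.36 and 11.46 without treatment, 11.60 and 11.42 at 1 h, 11.91 and 11.60 at 6 h, 10.97 and 11.11 at 24 h and 11.32 and 11.44 with ITGB4. It fell by 0.71 from 6 to 24 h (limma, adjusted p = 0.00657, standard error 0.14), and at 24 h both arrays lay below all others. ACACA, the acetyl-CoA carboxylase, had 2 kept probe sets that disagreed. Untreated arrays of ACACA on 214358_at read 7.16 and 7.17, the 1 h arrays 7.58 and 7.47, the 6 h arrays 7.80 and 7.91, the 24 h arrays 7.38 and 7.27 and the ITGB4 arrays 7.27 and 6.94. There ACACA rose by 0.69 after 6 h (limma, adjusted p = 0.0177, standard error 0.13), from an untreated mean under 7.3, and fell by 0.53 from 6 to 24 h. On its representative probe set 212186_at the differences were 0.02 (interval -0.29 to 0.33) and -0.12.

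SCD, FADS2, ELOVL5, ACSL1 and ACLY were called in no comparison. SCD levels were 12.14 and 11.99 without HGF, then 12.46 and 12.02 by 1 h, 12.05 and 11.75 by 6 h and 12.32 and 12.07 by 24 h, with 12.24 and 12.42 in the ITGB4 cells. SCD, the stearoyl-CoA desaturase, had a difference of -0.16 from untreated cells at 6 h. FADS2, a desaturase of polyunsaturated fatty acids, ELOVL5, which elongates them, and ACSL1, which activates fatty acids, differed by -0.09, -0.16 and -0.23 at 6 h, and ACLY, which supplies cytosolic acetyl-CoA, by 0.18. From 6 to 24 h, SCD, FADS2, ELOVL5 and ACSL1 had differences of 0.29, 0.22, 0.17 and 0.23 and ACLY of -0.20, none called, while FASN, ELOVL6 and 1 probe set of ACACA fell. On 201963_at ACSL1 lay at 10.13 and 9.14 on the 1 h arrays, a gap wider than any difference between group means on that probe set.

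**Figure D3:**
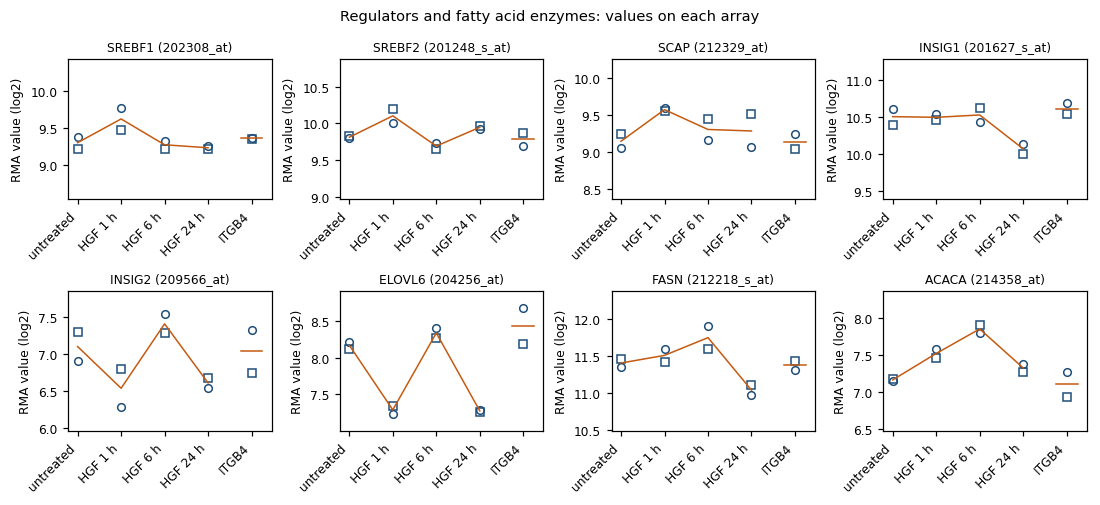
RMA values on the log2 scale (vertical axes, equal spans) of 5 regulators and 3 fatty acid enzymes in the 5 groups (horizontal axes). Each gene is shown on its probe set with the lowest adjusted p, with circles for replicate 1, squares for replicate 2 and lines for group means; ELOVL6 lies at 7.24 to 7.34 after 1 h and 24 h with HGF, under all its other arrays, and INSIG1 is lowest after 24 h.

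Against untreated cells, no member was called after 24 h, where 0% of all kept genes were called in either direction by limma. At an unadjusted p under 0.05, 12 of the 29 members were lower and 0 higher, where 9.50% and 4.01% of all kept genes were. The representative probe sets of 12 members had both 24 h arrays below both untreated arrays, against 23.5% of all kept genes, and of 4 above, against 22.7%. The 16 sterol enzymes had a median of -0.23 and the 8 fatty acid genes of -0.0096, against 0.01 over all kept genes. ELOVL6, SC5D and HMGCS1 were called lower with the adjustment made over all 7 comparisons together, and ELOVL6 also without either ITGB4 array. All 4 comparisons with untreated cells share the untreated arrays, and the 6 h arrays enter 3 of the comparisons, so they are not independent.

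Array by array, the median difference of the 16 sterol enzymes from the untreated mean was 0.12 and 0.06 on the 1 h arrays, 0.16 and 0.23 on the 6 h arrays, -0.28 and -0.19 on the 24 h arrays and 0.16 and 0.0039 on the ITGB4 arrays. The 24 h arrays lay below all others, and the 6 h arrays overlapped the ITGB4 ones. The median of all kept genes lay between -0.04 and 0.08 on these arrays. The fatty acid list stood at 0.18 on HGF 1 h replicate 1 and at -0.16 on replicate 2. It lay between -0.02 and 0.01 on the 6 and 24 h arrays, and at 0.19 and 0.11 on the ITGB4 arrays.

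**Figure D4:**
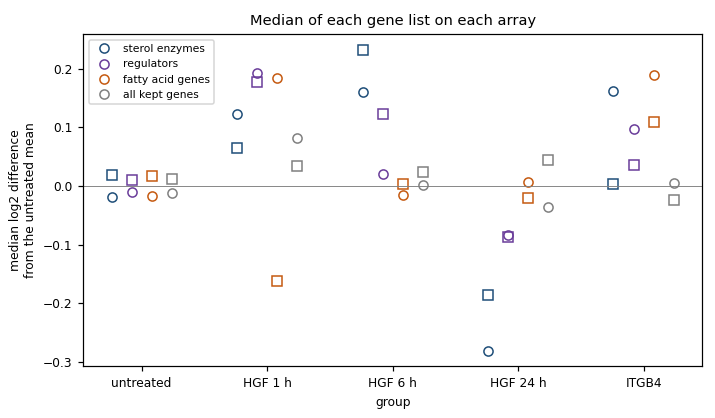
Vertical axis, median of the log2 differences to the mean of untreated arrays over the representative probe sets of 16 sterol enzymes, 5 regulators, 8 fatty acid genes and all 6390 kept genes on each array; horizontal axis, group. Circles are replicate 1 and squares replicate 2; the sterol enzymes lie lowest on the 24 h arrays, at -0.28 and -0.19, while the 6 h arrays, at 0.16 and 0.23, overlap ITGB4 replicate 1 at 0.16.

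In ITGB4-transduced cells no member was called, where 0.0469% of all kept genes were higher and 0% lower by limma. At an unadjusted p under 0.05, 4 members were higher and 0 lower, where 4.69% and 3.27% of all kept genes were. These were HMGCS1, SQLE, INSIG1 and SCD. The median difference was 0.17 for the 8 fatty acid genes, 0.11 for the 16 sterol enzymes and -0.0036 for the 5 regulators. Over all kept genes it was -0.0099. HMGCS1 differed by 0.46 on 205822_s_at (interval 0.01 to 0.91, adjusted p = 0.799 from limma). The ITGB4 arrays lay apart for SC5D, at 9.97 and 9.27, and for ELOVL6, at 8.68 and 8.19. SREBF1, SREBF2 and SCAP differed from untreated cells by 0.06, -0.03 and -0.0036, with intervals of -0.23 to 0.35, -0.29 to 0.24 and -0.37 to 0.36.

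A separate list held other genes of lipid handling. Of 31 kept genes for sterol transport, storage, fatty acid oxidation and nuclear receptors, 0 were higher and 2 lower after 1 h, where 0.814% and 6.45% of all kept genes were. After 6 h 1 was higher and 3 lower, against 4.73% and 2.97%. From 1 to 6 h 4 were higher and 4 lower, against 13.5% and 8.15%, and from 6 to 24 h 3 higher and 2 lower, against 8.15% and 14.0%. PLIN2, the coat protein of lipid droplets, rose by 0.49 after 6 h (limma, adjusted p = 0.0403, standard error 0.12) and fell by 0.62 from 6 to 24 h. ABCA1, the cholesterol exporter, was higher by 0.83 at 6 than at 1 h on its representative probe set (limma, adjusted p = 0.00942). On its other probe set it was higher by 0.9988, where the 1 h mean of 6.98 makes the size inexact. From 6 to 24 h ABCA1 differed by -0.47 on that other probe set (limma, adjusted p = 0.0434). On the representative the difference was -0.46, without a call (adjusted p = 0.0688). VLDLR is a lipoprotein receptor, and OSBP and OSBPL1A are oxysterol-binding proteins. After 6 h they were lower than in untreated cells by 0.80, 0.54 and 0.58 (standard errors 0.13, 0.12 and 0.12). At 24 h they were higher than at 6 h by 0.65, 0.75 and 0.38. OSBPL1A was already called lower after 1 h, at -0.64 (limma, adjusted p = 0.0216), and differed by 0.06 from 1 to 6 h (adjusted p = 0.724). Its other probe set differed by -0.40 and -0.26 there, without a call (adjusted p = 0.0580 and 0.125). The 6 h mean of VLDLR, 7.24, lies under 7.3, so its sizes are not exact. The other kept probe set of OSBP disagreed, with -0.01 after 6 h (adjusted p = 0.980) and 0.31 from 6 to 24 h (adjusted p = 0.164). ACADM, which starts the oxidation of medium-chain fatty acids, fell by 0.96 after 1 h (adjusted p = 0.0148) and was higher by 0.81 from 1 to 6 h, with a 1 h mean just under 7.3 that makes both sizes inexact. LPIN1, which makes diacylglycerol, was higher by 0.52 from 1 to 6 h on 1 of its 3 kept probe sets, and CPT2, of fatty acid oxidation, and PPARD, a nuclear receptor for fatty acids, fell by 0.52 and fell by 0.46, the latter to a 6 h mean of 7.18 and not called on its other probe set, at -0.50 (adjusted p = 0.0826). The medians of these 31 genes were -0.05 after 6 h and 0.13 from 6 to 24 h, where those of the sterol enzymes were 0.20 and -0.36.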

How the data were processed

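RNA of 10 cultures was hybridised to 10 arrays. The authors deposited RMA values, in log2 units, between 2.19 and 14.28, with array medians from 6.81 to 6.88. Their exclusion of probe sets without presence calls is not part of these values, so a second-highest value of at least 7.3 over 10 arrays stood in for it. No other transformation was made. Arrays have no read depth, and their number limits the precision. Symbols came from the platform annotation, in which 19065 probe sets had 1 symbol, 1043 several and 2107 none, with 68 controls left out. The 1078 kept probe sets without a single symbol were tested but are not named.

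Group means over all 10 arrays were fitted in limma 3.58.1 in R 4.3.3 (5 residual and 5.94 prior degrees of freedom). Benjamini-Hochberg adjustment ran over 10176 probe sets within each of 7 comparisons. On simulated data of that size with changes in the HGF 6 h group, limma recovered 28% of changes of 0.5 on the log2 scale. It recovered 98% of changes of 1 and 100% of 1.5 and 2, with 10 false calls in 173. The simulated noise was normal and independent, with spreads from the limma fit, so these rates need not hold for the arrays. Array values were given for members called in any comparison and for 5 regulators. The members, lists and tests were chosen with earlier results of these data known. Mulcom and SAM were not run, and Illumina arrays of the study were not analysed here. Alternatives were no filter, a filter at 8, median centring, cyclic loess, mean probe sets, the replicate number as a block, each array left out, a robust and trended prior, the spread of only the compared groups, and adjustment over all comparisons.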

Additional observations from a re-analysis of the deposited data

Results flagged for a closer look

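Levels differed between the HGF time points for 9 members at 1 and 6 h (7 higher, 2 lower). For 11 members they differed at 6 and 24 h (all lower), by the direct limma test between the treated groups. Of all kept genes, 13.5% were higher and 8.15% lower at 6 than at 1 h, and 8.15% higher and 14.0% lower at 24 than at 6 h. The means of the untreated arrays do not enter these differences, but their spread enters the test, and the calls of SREBF2 and of IDI1 on 208881_x_at from 1 to 6 h were lost with either untreated array left out. At 6 against 1 h the log2 differences of HMGCS1, ELOVL6, SC5D, SQLE, MSMO1, LSS, INSIG2, IDI1 and SREBF2 were 1.19, 1.05, 1.00, 0.72, 0.67, -0.53, 0.88, 0.55 and -0.41, each on the probe set with the lowest adjusted p. At 24 against 6 h those of HMGCS1, SQLE, ELOVL6, MSMO1, NSDHL, FASN, HSD17B7, ACACA, SC5D, INSIG2 and INSIG1 were -1.29, -1.004, -1.06, -0.79, -0.85, -0.71, -0.57, -0.53, -0.75, -0.80 and -0.46. Groups of 2 arrays are too small for a test of single outlying arrays.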

How the results depend on the processing

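No called difference of a named member changed sign in any of the 19 alternative settings that gave it a value (18 for INSIG2 and ACACA on 214358_at, which the stricter filter removed). HMGCS1 (221750_at), SQLE on its 3 probe sets, MSMO1, NSDHL (209279_s_at) and ELOVL6 were called lower at 24 than at 6 h in all 19, and HMGCS1 (221750_at) and ELOVL6 higher at 6 than at 1 h. Of the 36 called differences of named probe sets, 13 and 14 were kept without HGF 6 h replicate 1 and 2, and 22 to 36 in the other settings (32 of 32 with the stricter filter). At 1 h against untreated cells 5 members were called with a trended and robust prior, and 0 to 5 with an array left out. At 6 h the count of 4 was 2 with mean probe sets, 7 (6 higher, 1 lower) with the spread of the compared groups alone, and 0 to 4 with an array left out. At 24 h against untreated cells it was 3 with adjustment over all comparisons and 0 to 1 with an array left out. From 1 to 6 h the count of 9 was 2 to 12, and from 6 to 24 h the count of 11 was 6 to 12, with an array left out, where the lone array of a group is assumed to vary like the other groups. The cause of these changes was not tested, beyond the loss of an array. With the replicate number as a block 4 members were called at 1 and at 6 h against untreated cells, 9 from 1 to 6 h and 12 from 6 to 24 h, and no named call was lost. Shares of all kept genes are not given for these settings. A change in the member counts therefore cannot be told apart from a change in calls over all genes. The deviations of replicate 1 arrays from their group means correlated between groups with r from -0.14 to 0.46. The highest were 0.46 for HGF 6 h with HGF 24 h and 0.45 for untreated cells with HGF 24 h. The main test did not take the numbers to pair the samples, and the replicate block above is the alternative. Signal near the filter limits INSIG2, ELOVL6 and ACACA (214358_at).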
